A study of Mus musculus with 6 samples.

Results

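The genes of cholesterol synthesis and uptake were examined in whole livers of mice with and without hepatocyte *Med23*. The list holds 31 genes chosen by their place in the pathway, which are 19 enzymes in order from acetyl-CoA to cholesterol, 5 regulators of the pathway and 7 genes of cholesterol uptake, efflux, transfer and esterification. All 31 were found by gene symbol among the 24346 genes of the RNA-seq table, and all 31 passed the filter on low values (a mean of at least 0.5 FPKM, fragments mapped to a gene, scaled to transcript length and library size). The 6 libraries came from male mice of strain C57/BL6 at 8 weeks of age, 3 *med23* f/f controls (genotype label wt) and 3 *med23*Δli mice (genotype label med23 ko), in which *Albumin*-cre removes the floxed part of *Med23* from hepatocytes while the other liver cells keep it. Every mouse of both groups had been injected with CCl4 at 0.6 μl per g body weight in sunflower oil and was killed 24 hours later, so no untreated liver stands beside them. CCl4 is a hepatotoxin that hepatocytes turn into a reactive radical, chiefly around the central vein. Each library is 1 mouse.

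Cholesterol is built from acetyl-CoA through mevalonate, which is turned into isoprenoid units, joined to farnesyl diphosphate and squalene, closed to lanosterol and trimmed to cholesterol. The liver is a main site of this synthesis, and it also takes up cholesterol from lipoproteins and secretes it again. The transcription factor SREBP2, encoded by *Srebf2*, switches on nearly all of the enzymes together: SCAP escorts it from the endoplasmic reticulum to the Golgi when sterols are scarce, and INSIG proteins hold the pair back when sterols are plentiful.

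The deleted gene was looked at first. *Med23* had 3.42, 2.97 and 4.14 FPKM in the controls and 3.40, 3.40 and 2.91 FPKM in the *med23*Δli livers, and the groups overlapped (log2 fold change −0.11, standard error 0.17, adjusted p = 0.685, limma). This level covers the whole transcript in all liver cells, so the direction of every difference below rests on the genotype labels. Across genes tested, Pearson correlations of log2 values were 0.953 to 0.969 among the controls, 0.976 to 0.982 among the *med23*Δli livers and 0.922 to 0.951 between the groups. The depth of each library is unknown because FPKM values carry no counts. Hepatocyte markers were abundant in all libraries, with *Alb* the highest. None of the 8 tested passed (limma), and their summed level was 35464 to 45946 FPKM in the controls and 30330 to 36503 FPKM in the *med23*Δli livers. All 6 endothelial markers were lower in the *med23*Δli livers (limma, adjusted p under 0.05), with sums of 76.0 to 112 FPKM against 39.8 to 42.7 FPKM, led by *Clec4g*. In the same direction, 2 of 6 stellate cell markers fell (*Colec11*, and *Des* at an adjusted p of 0.0497, limma). The other 4 did not pass, and of these only *Reln* was higher on average (2.38 against 3.34 FPKM). The stellate list summed to 87.3 to 106 FPKM against 66.9 to 84.1 FPKM. Most of that sum was *Dcn*, which did not pass (means of 71.8 against 57.9 FPKM, adjusted p = 0.184, limma). None of 10 macrophage and monocyte markers, 5 neutrophil markers and 5 biliary markers passed, and all 6 lymphocyte markers lay under the filter on low values, with sums of 1.17 to 1.84 FPKM in the controls and 1.01 to 1.98 FPKM in the *med23*Δli livers. The sums overlapped between the groups for macrophages and monocytes (275 to 330.1 FPKM against 307 to 321 FPKM), neutrophils (43.3 to 137 FPKM against 40.3 to 100.2 FPKM) and biliary cells (62.9 to 108 FPKM against 61.0 to 99.2 FPKM). In bulk liver, fewer cells of a type and less RNA per cell cannot be told apart, and the part of endothelial cells in the results below was not tested.

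Cholesterol synthesis genes were broadly lower in the *med23*Δli livers. Of the 31 genes, 18 fell and 3 rose at an adjusted p under 0.05 (limma on log2(FPKM + 0.1), Benjamini-Hochberg adjustment over 11956 genes tested), where 9.48% of all genes tested fell and 11.6% rose. These 18 are 58.1% of the members. Without *med23*Δli replicate 1, 8 members fell and 1 rose, while the count over all genes that fell went from 1133 to 349 and of those that rose from 1384 to 401. Without *med23*Δli replicate 3, 10 members fell and 1 rose (412 and 578 of all genes), and without replicate 2 of that group 12 fell and 1 rose (442 and 487). With a change of more than 2-fold asked for as well, 10 fell and 1 rose, beside 3.45% and 4.45% of all genes tested. In 20 members the 3 *med23*Δli values lay below all 3 control values and in 3 above them, which happened in 20.4% and 23.3% of genes tested. Of the 19 enzymes, 13 fell, 1 rose and 5 did not pass, with a median log2 fold change of −1.13 over the 19, where the median over all genes tested was 0.02. Of the regulators 3 of 5 fell, and of the transport genes 2 of 7 fell and 2 rose. All 10 members that fell more than 2-fold are enzymes. Summed over the 19 enzymes, transcript levels were 1166, 988 and 662 FPKM in the controls and 434, 429 and 514 FPKM in the *med23*Δli livers.

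**Figure D1:**
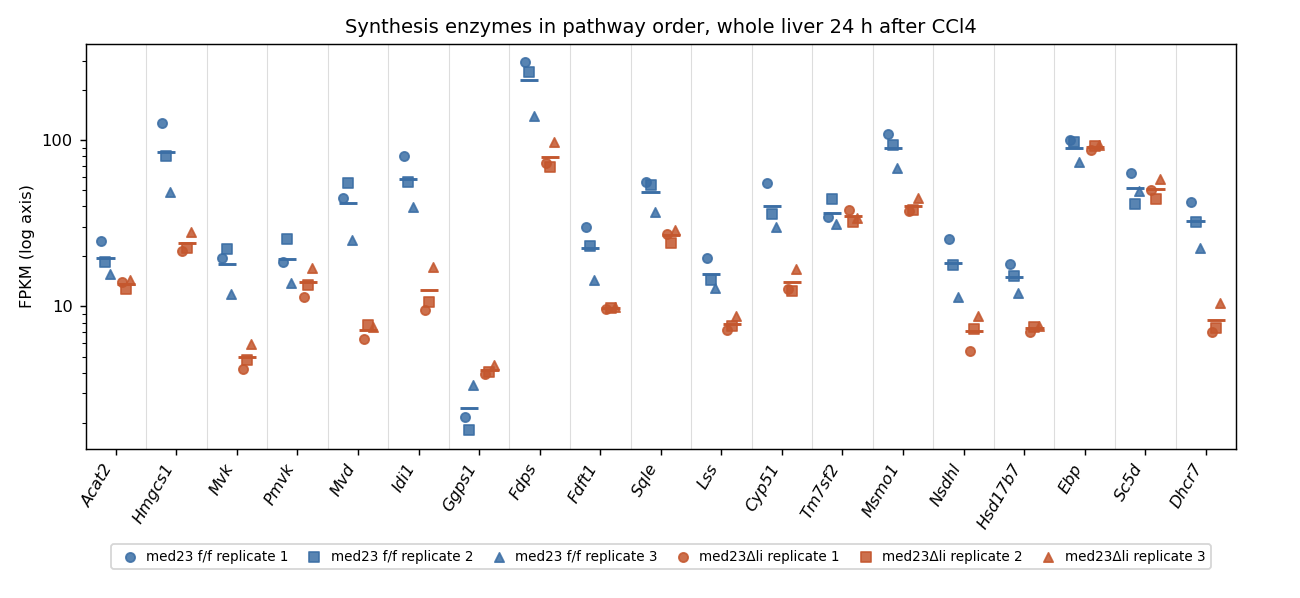
FPKM of the 19 synthesis enzymes on a log axis, in pathway order from left to right, with 1 point per liver, the group mean as a bar, *med23* f/f in blue and *med23*Δli in orange. For *Mvd*, *Idi1*, *Mvk* and *Dhcr7* the lowest control lies more than 2-fold above the highest *med23*Δli liver, whereas *Tm7sf2*, *Ebp* and *Sc5d* overlap.

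Of the 19 enzymes, 4 (*Mvd*, *Idi1*, *Dhcr7* and *Mvk*) had log2 fold changes below −1.74, the level of the lowest 1% of all genes tested, and 12 lay below −0.95, the level of the lowest 5%. In all 13 enzymes that fell, the lowest control exceeded the highest *med23*Δli liver, by a factor between 1.29 (*Sqle*) and 3.28 (*Mvd*). The mean level left in the *med23*Δli livers was between 17.2% (*Mvd*) and 54.6% (*Sqle*) of the control mean. With 3 livers a group, the smallest two-sided p of an exact permutation test is 0.1, so the single-gene tests rest on the limma fit over all genes.

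The promoters of 25 of the 31 genes are in the RefSeq table used here (build GRCm38.p6, 250 bases before to 50 bases after each start site), and some are shown because the enzymes moved together. SREBP2 acts with the CCAAT-binding factor NF-Y and with Sp1 at its target promoters. CCAAT, searched on both strands and so also as ATTGG, was found in the promoters of all 10 fallen enzymes that have a promoter in the table, in 5 of the 6 other enzymes and in 41.1% of all 27025 genes in the table. Within the last 100 bases before the start site it was present in all 10 fallen enzymes, in 4 of the other 6 and in 22.0% of all genes in the table. CCGCCC, an Sp1 box, also searched as GGGCGG, was found in 10 of 10 and 4 of 6 enzymes, against 38.2% of all genes in the table and 67.7% of the genes tested that have a promoter there. The stricter sterol regulatory element TCACNCCAC, on either strand, was found in 1 member, *Hmgcs1*, and in 1.44% of all genes in the table. A gene counts where any of its listed windows holds the letters, and the window of *Dhcr7* with CCAAT is not the one plotted. A literal search of this kind describes letters and not binding. Below, CCAAT boxes and the sterol regulatory element are in capitals, 5′ to 3′ on the strand of the gene, for 3 enzymes that fell more than 3-fold and for *Ebp* and *Tm7sf2*, whose levels overlapped between the groups.
*Hmgcs1*, chr13:119690101-119690400, plus strand, with 4 CCAAT boxes and 1 sterol regulatory element: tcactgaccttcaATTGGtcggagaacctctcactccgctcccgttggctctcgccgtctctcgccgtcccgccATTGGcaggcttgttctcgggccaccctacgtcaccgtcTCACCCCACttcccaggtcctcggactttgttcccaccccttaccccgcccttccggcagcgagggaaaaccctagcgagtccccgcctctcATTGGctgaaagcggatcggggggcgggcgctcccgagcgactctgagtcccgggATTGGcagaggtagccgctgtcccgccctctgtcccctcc
*Mvd*, chr8:122443373-122443672, minus strand, with 2 CCAAT boxes: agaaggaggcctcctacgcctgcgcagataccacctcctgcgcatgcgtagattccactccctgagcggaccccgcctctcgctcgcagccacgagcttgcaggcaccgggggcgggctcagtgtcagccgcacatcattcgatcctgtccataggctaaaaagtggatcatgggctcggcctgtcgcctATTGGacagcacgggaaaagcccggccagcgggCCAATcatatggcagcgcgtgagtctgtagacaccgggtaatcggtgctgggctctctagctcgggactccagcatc
*Idi1*, chr13:8885356-8885655, plus strand, with 2 CCAAT boxes: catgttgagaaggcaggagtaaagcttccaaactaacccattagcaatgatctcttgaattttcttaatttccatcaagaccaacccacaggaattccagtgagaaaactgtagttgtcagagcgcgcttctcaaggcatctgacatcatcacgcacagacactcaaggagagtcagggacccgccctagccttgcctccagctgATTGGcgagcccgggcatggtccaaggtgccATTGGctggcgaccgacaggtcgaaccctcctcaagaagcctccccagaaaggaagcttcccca
*Ebp*, chrX:8193463-8193762, minus strand, with 2 CCAAT boxes: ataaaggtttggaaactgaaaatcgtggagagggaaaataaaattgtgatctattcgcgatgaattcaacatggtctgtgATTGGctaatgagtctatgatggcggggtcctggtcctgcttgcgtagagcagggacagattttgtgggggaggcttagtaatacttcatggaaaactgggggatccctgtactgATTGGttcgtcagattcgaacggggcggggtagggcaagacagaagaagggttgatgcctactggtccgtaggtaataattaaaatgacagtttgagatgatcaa
*Tm7sf2*, chr19:6067801-6068100, minus strand, with 1 CCAAT box: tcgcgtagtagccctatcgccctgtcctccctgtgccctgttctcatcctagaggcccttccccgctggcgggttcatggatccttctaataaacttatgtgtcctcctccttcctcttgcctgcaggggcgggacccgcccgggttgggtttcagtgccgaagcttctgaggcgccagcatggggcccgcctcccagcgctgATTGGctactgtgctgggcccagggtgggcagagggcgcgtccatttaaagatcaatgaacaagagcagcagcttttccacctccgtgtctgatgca
CCAAT boxes thus stood in promoters of enzymes that fell and in those of *Ebp* and *Tm7sf2*.

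**Figure D2:**
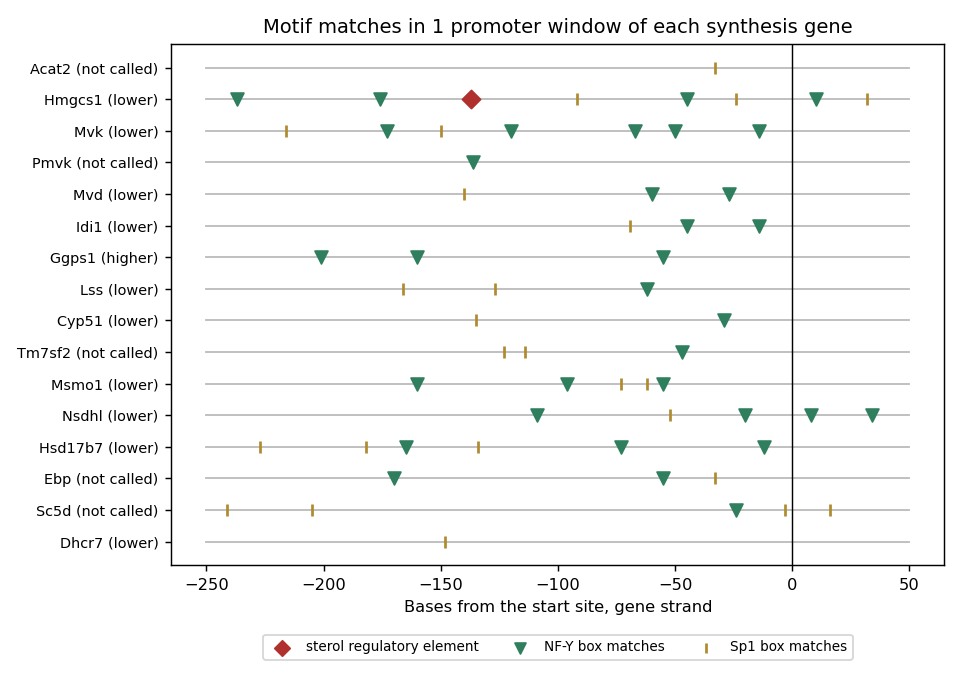
Positions of motif matches, in bases from the start site on the gene's strand, in 1 promoter window (the first listed with a match) of the 16 synthesis enzymes in the RefSeq table, with each enzyme's call in brackets. Triangles are CCAAT boxes, ticks are Sp1 boxes and the diamond is the sterol regulatory element of *Hmgcs1*, the only one found.

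Of the 6 enzymes from acetyl-CoA to the isoprenoid units, 4 fell and 2 did not pass, and *Mvd* and *Idi1* had the lowest log2 fold changes of the 31 genes. *Hmgcs1*, the cytosolic synthase that makes HMG-CoA, had 126, 80.4 and 48.8 FPKM in the controls and 21.7, 22.6 and 27.9 FPKM in the *med23*Δli livers. The controls spread widely, yet even the lowest lay 1.75-fold above the highest *med23*Δli liver. The log2 fold change was −1.72 (standard error 0.31, adjusted p = 0.0108, limma). *Mvk*, mevalonate kinase, had 19.5, 22.3 and 12.0 FPKM against 4.19, 4.77 and 5.93 FPKM, a log2 fold change of −1.80 (standard error 0.25, adjusted p = 0.00460, limma). *Mvd*, the decarboxylase that yields isopentenyl diphosphate, had 44.8, 55.2 and 25.3 FPKM against 6.35, 7.71 and 7.48 FPKM. Its mean fell from 41.8 ± 15.2 to 7.18 ± 0.726 FPKM (SD, n = 3 each), with a log2 fold change of −2.46 (standard error 0.27, adjusted p = 0.00237, limma), and it ranked 43 from the lowest among all genes tested. *Idi1*, the isomerase that makes dimethylallyl diphosphate, had 80.2, 55.8 and 39.8 FPKM against 9.58, 10.6 and 17.3 FPKM (log2 fold change −2.21, standard error 0.30, adjusted p = 0.00445, limma). In GENCODE M21 (mm10), *Hmgcs1* lies at chr13:119690379-119708260 on the plus strand, *Mvk* at chr5:114444269-114460591 (plus), *Mvd* at chr8:122433601-122443422 (minus) and *Idi1* at chr13:8885501-8892451 (plus). These 4 enzymes kept between 17.2% and 28.2% of the control level.

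The other 2 enzymes of this stretch did not pass. *Acat2*, the cytosolic thiolase that joins 2 molecules of acetyl-CoA, had 24.8, 18.5 and 15.6 FPKM in the controls and 14.0, 12.7 and 14.5 FPKM in the *med23*Δli livers. The groups did not overlap, but the gap between them was small (log2 fold change −0.49, 95% interval −0.91 to −0.07, adjusted p = 0.0903, limma), and without control replicate 3 the adjusted p was 0.0290. Reads of *Acat2* are uncertain where the near-identical *Acat3*, at mean levels of 56.7 and 74.2 FPKM, shares them. *Pmvk*, the kinase between *Mvk* and *Mvd* in the route, had 18.5, 25.6 and 13.8 FPKM against 11.4, 13.4 and 17.1 FPKM, and the groups overlapped (log2 fold change −0.44, 95% interval −0.9995 to 0.13, adjusted p = 0.227, limma). Its neighbours in the route on either side, *Mvk* and *Mvd*, fell to 27.7% and 17.2% of the control mean, while the mean of *Pmvk* was 72.5% of it. The difference in response between *Pmvk* and its neighbours was not tested.

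At the prenyl steps *Fdps* and *Fdft1* of the main route fell, while *Ggps1*, a single gene at the side branch, rose. *Fdps*, farnesyl diphosphate synthase and the most abundant of the 19 enzymes in the controls, had 295, 259 and 140.0 FPKM in the controls and 73.3, 68.7 and 97.3 FPKM in the *med23*Δli livers (log2 fold change −1.48, standard error 0.28, adjusted p = 0.0125, limma). *Fdft1*, squalene synthase, which commits farnesyl diphosphate to sterols, had 29.9, 23.1 and 14.4 FPKM against 9.67, 9.83 and 9.92 FPKM, and the *med23*Δli livers were nearly equal (log2 fold change −1.13, standard error 0.25, adjusted p = 0.0188, limma). *Fdft1* shares 774 exon bases with *Ctsb* on the opposite strand, a gene at mean levels of 222 and 236 FPKM, and the counting is not stated to use strand, so its level is uncertain. *Ggps1*, which diverts farnesyl diphosphate to geranylgeranyl diphosphate for protein prenylation, had 2.15, 1.80 and 3.39 FPKM in the controls and 3.92, 4.05 and 4.43 FPKM in the *med23*Δli livers. It was higher in all *med23*Δli livers, with a log2 fold change of 0.78 (standard error 0.23, adjusted p = 0.0479, limma). *Ggps1* shares 257 exon bases with *Arid4b* on the opposite strand, a gene at mean levels of 2.76 and 3.19 FPKM. That call stood just inside the threshold and ended, with an adjusted p up to 0.140, on removal of any 1 library except control replicate 3. The calls of *Fdps* (0.0508) and *Fdft1* (0.0678) ended without *med23*Δli replicate 1, and that of *Fdft1* also without replicates 2 (0.0628) and 3 (0.0653) of that group.

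Of the 10 enzymes of the sterol steps from squalene onward, 7 fell and 3 did not pass, with a median log2 fold change of −0.98. *Sqle*, the squalene epoxidase that limits the rate of the late pathway, had 56.2, 54.0 and 37.0 FPKM in the controls and 27.5, 24.2 and 28.8 FPKM in the *med23*Δli livers (log2 fold change −0.85, standard error 0.18, adjusted p = 0.0183, limma). *Lss*, the cyclase that makes lanosterol, had 19.5, 14.4 and 13.0 FPKM against 7.21, 7.67 and 8.74 FPKM (log2 fold change −0.97, standard error 0.18, adjusted p = 0.0111, limma). *Cyp51*, the P450 that demethylates lanosterol, had 55.1, 36.0 and 30.1 FPKM against 12.7, 12.4 and 16.7 FPKM (log2 fold change −1.49, standard error 0.24, adjusted p = 0.00711, limma). *Lss* shares 381 and *Cyp51* 166 exon bases with genes on the opposite strand, each at under 3 FPKM. In these 3 genes no *med23*Δli liver reached the lowest control. Among them the fall of *Cyp51* left 34.6% of the control mean, against 54.6% for *Sqle* and 50.3% for *Lss*.

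*Msmo1*, *Nsdhl* and *Hsd17b7* act together to remove the methyl groups at carbon C4 of the sterol ring, and all 3 fell. *Msmo1* had 109.8, 93.5 and 68.0 FPKM in the controls and 37.4, 38.0 and 44.8 FPKM in the *med23*Δli livers (log2 fold change −1.15, standard error 0.19, adjusted p = 0.00813, limma). *Nsdhl* had 25.6, 17.7 and 11.5 FPKM against 5.385, 7.34 and 8.79 FPKM, a log2 fold change of −1.29 whose adjusted p of 0.0228 (limma) rose to between 0.0503 and 0.0832 when any library but control replicate 3 was left out. *Hsd17b7* had 18.0, 15.2 and 12.1 FPKM against 7.03, 7.55 and 7.67 FPKM. Its log2 fold change of −0.9998 (standard error 0.17, adjusted p = 0.00804, limma) lay just short of the 2-fold threshold. *Dhcr7* (chr7:143823145-143848410, plus strand), the reductase of the last step, had 42.6, 32.2 and 22.6 FPKM against 7.0016, 7.37 and 10.5 FPKM, so that 25.6% of the control mean was left (log2 fold change −1.93, standard error 0.25, adjusted p = 0.00403, limma). The calls of *Sqle* and *Lss* ended without *med23*Δli replicate 1 (adjusted p = 0.0660 and 0.0544, limma), and that of *Sqle* also without replicate 2 (0.0735) or 3 (0.0549) of that group.

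The remaining 3 sterol enzymes overlapped between the groups. *Tm7sf2*, a sterol reductase, had 34.4, 44.3 and 31.5 FPKM in the controls and 38.3, 32.2 and 34.1 FPKM in the *med23*Δli livers (log2 fold change −0.07, 95% interval −0.44 to 0.31, adjusted p = 0.797, limma). It shares 532 exon bases with *Vps51* on the same strand, so reads of the pair can be split between them. *Ebp*, the sterol isomerase, had 99.9, 97.7 and 73.8 FPKM against 87.1, 93.05 and 93.3 FPKM, with an interval of −0.33 to 0.37 around a log2 fold change of 0.02. *Sc5d*, the sterol desaturase, had 63.7, 41.6 and 49.4 FPKM against 50.2, 44.6 and 58.4 FPKM, with an interval of −0.43 to 0.43. None of these 3 intervals reaches the 2-fold change that *Dhcr7*, next to *Sc5d* in the route, exceeded.

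**Figure D3:**
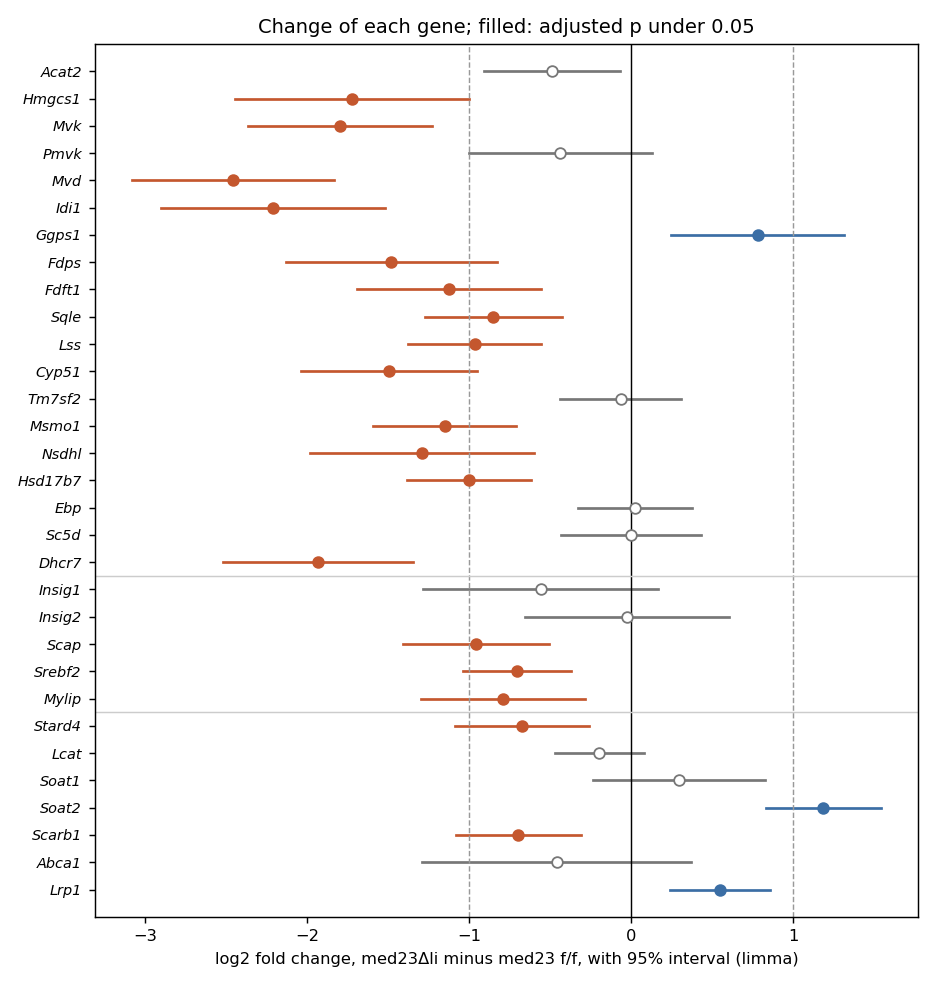
Log2 fold change of each of the 31 genes (*med23*Δli minus *med23* f/f, limma) with its 95% interval, ordered from the first enzyme down to the transport genes, with filled points at an adjusted p under 0.05 and dashed lines at a 2-fold change. Orange points fell, blue points (*Ggps1*, *Soat2* and *Lrp1*) rose, and open points did not pass.

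Many of the enzymes ranked the livers of 1 group alike. Of the 13 enzymes that fell, 11 were highest in control replicate 1 and 13 were lowest in control replicate 3, and 11 had control replicate 2 between them, beside 33.7%, 35.8% and 16.5% of all genes tested. Among the *med23*Δli livers 12 of the 13 were highest in replicate 3, and replicate 1 was the lowest for 10, beside 25.4% and 27.0% of all genes tested. The summed hepatocyte markers had the same order in the controls (45946, 43215 and 35464 FPKM in replicates 1, 2 and 3). The single markers did not all share it, and *Alb*, the highest, had 20597, 22376 and 16252 FPKM in these controls. In the *med23*Δli livers the sum was lowest in replicate 3 (35028, 36503 and 30330 FPKM). The part of the hepatocyte markers in the order of the enzymes was not tested. The median coefficient of variation over these 13 enzymes was 32.4% in the controls and 14.0% in the *med23*Δli livers, where the medians over all genes tested were 17.8% and 10.3%. From the lowest to the highest control the median enzyme of the 13 differed 1.88-fold, while the control and *med23*Δli means differed 2.89-fold at the median. Leaving out control replicate 1 left 12 fallen enzymes and leaving out control replicate 3 gave 14, while leaving out *med23*Δli replicate 1 left 8. The livers within a group carry no other label by which this order could be read.

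Of the 5 regulators of the pathway, 3 fell and 2 did not pass, with log2 fold changes between −0.96 (*Scap*) and −0.03 (*Insig2*). *Srebf2* (chr15:82147181-82205379, plus strand), which encodes SREBP2, had 25.3, 18.9 and 20.6 FPKM in the controls and 13.1, 13.5 and 12.8 FPKM in the *med23*Δli livers. The *med23*Δli values were tightly grouped and below all controls, at 60.7% of the control mean (log2 fold change −0.70, standard error 0.14, adjusted p = 0.0159, limma). *Scap*, the escort of SREBP proteins, had 41.0, 54.4 and 66.0 FPKM against 28.4, 30.1 and 23.4 FPKM (log2 fold change −0.96, standard error 0.20, adjusted p = 0.0158, limma). Its controls ran in the opposite order to those of the enzymes, lowest in replicate 1 and highest in replicate 3. *Mylip*, a ubiquitin ligase that marks lipoprotein receptors for degradation, had 1.98, 2.81 and 2.92 FPKM against 1.19, 1.70 and 1.42 FPKM (log2 fold change −0.79, standard error 0.22, adjusted p = 0.0397, limma).

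The INSIG genes did not pass. *Insig1*, itself a target of SREBP2, had 116, 62.5 and 49.2 FPKM in the controls and 37.4, 58.9 and 50.6 FPKM in the *med23*Δli livers. Control replicate 1 stood alone and the other values overlapped (log2 fold change −0.56, 95% interval −1.28 to 0.17, adjusted p = 0.231, limma). *Insig2*, the paralog that does not depend on SREBP2 in this way, had 86.2, 145 and 179.7 FPKM against 136, 149.8 and 104.9 FPKM, with an interval of −0.66 to 0.60 around a log2 fold change of −0.03. The log2 ratio of *Insig1* to *Insig2* was 0.43, −1.22 and −1.87 in the controls and −1.86, −1.34 and −1.05 in the *med23*Δli livers, and the groups overlapped (difference −0.53, exact two-sided permutation p = 0.7, adjusted p = 0.7 over 2 paralog ratios). The calls of *Srebf2*, *Scap* and *Mylip* ended without *med23*Δli replicate 1 (adjusted p = 0.0683, 0.0558 and 0.142, limma) and without replicate 3 of that group (0.0601, 0.0616 and 0.106). Those of *Srebf2* (0.0579) and *Mylip* (0.0712) also ended without *med23*Δli replicate 2, and that of *Mylip* without control replicate 2 (0.0914) or 3 (0.0720).

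**Figure D4:**
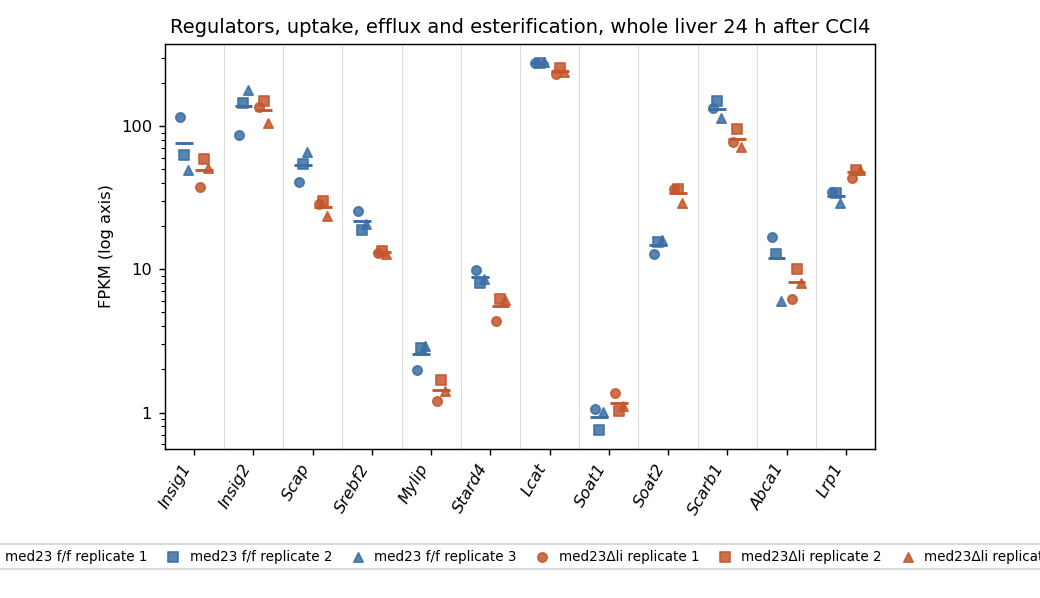
FPKM of the 12 regulator, uptake, efflux, transfer and esterification genes on a log axis, with 1 point per liver and the group mean as a bar (*med23* f/f in blue, *med23*Δli in orange). *Scap*, *Srebf2*, *Mylip*, *Stard4* and *Scarb1* lie lower in all *med23*Δli livers, *Soat2* and *Lrp1* lie higher, and *Lcat* is separated by a narrow gap.

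Genes of sterol transfer and esterification moved in both directions. *Soat2* (chr15:102150526-102163469, plus strand), the enzyme that esterifies cholesterol in hepatocytes, had 12.9, 15.5 and 16.1 FPKM in the controls and 36.6, 36.3 and 28.9 FPKM in the *med23*Δli livers. It rose 2.29-fold, from 14.8 ± 1.73 to 33.9 ± 4.32 FPKM (SD, n = 3 each), and was the only member to rise more than 2-fold in the fit to all 6 libraries (log2 fold change 1.19, standard error 0.15, adjusted p = 0.00393, limma). *Soat1*, the isoform of macrophages and other cells, was at 1.05, 0.753 and 1.00 FPKM against 1.37, 1.03 and 1.11 FPKM (log2 fold change 0.30, 95% interval −0.24 to 0.83, adjusted p = 0.379, limma). The log2 ratio of *Soat1* to *Soat2* was −3.49, −4.19 and −3.88 in the controls and −4.64, −5.01 and −4.59 in the *med23*Δli livers. The ratio was lower in all *med23*Δli livers (difference −0.89), which gives the smallest p this design allows, 0.1 in an exact two-sided permutation test, or 0.2 adjusted over 2 ratios. *Stard4*, a carrier that moves sterols between membranes, fell, with 9.89, 8.07 and 8.54 FPKM against 4.32, 6.22 and 6.13 FPKM (log2 fold change −0.67, standard error 0.18, adjusted p = 0.0346, limma). *Lcat*, secreted by the liver to esterify cholesterol in plasma, had 273, 277 and 278 FPKM in the controls and 230.0, 255 and 238 FPKM in the *med23*Δli livers. The groups did not overlap, but the difference was small and did not pass (log2 fold change −0.20, 95% interval −0.47 to 0.08, adjusted p = 0.267, limma).

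Receptors and efflux genes differed among themselves as well. *Scarb1*, the receptor through which the liver takes cholesterol from HDL, had 132, 150.2 and 113 FPKM in the controls and 77.7, 95.9 and 71.2 FPKM in the *med23*Δli livers, and it fell to 61.8% of the control mean (log2 fold change −0.70, standard error 0.17, adjusted p = 0.0252, limma). *Lrp1*, an endocytic receptor for lipoprotein remnants, rose in all *med23*Δli livers, from 34.4, 34.0 and 29.0 FPKM to 43.2, 49.5 and 49.5 FPKM (log2 fold change 0.55, standard error 0.13, adjusted p = 0.0265, limma). *Abca1*, which exports cholesterol to form HDL, had 16.8, 12.8 and 6.05 FPKM against 6.18, 10.1 and 8.01 FPKM. Its controls alone spanned the values of the *med23*Δli livers (log2 fold change −0.46, 95% interval −1.29 to 0.37, adjusted p = 0.383, limma), and without control replicate 3, the lowest, the adjusted p was 0.0300. The calls of *Scarb1*, *Stard4* and *Lrp1* ended without *med23*Δli replicate 1 (adjusted p = 0.0965, 0.121 and 0.0710, limma) and without replicate 3 of that group (0.0881, 0.0699 and 0.0896). Those of *Stard4* (0.0698) and *Lrp1* (0.106) also ended without *med23*Δli replicate 2, and those of *Scarb1* (0.0586) and *Stard4* (0.0884) without control replicate 1, as did *Scarb1* without control replicate 2 (0.0570).

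Most other genes of sterol handling did not pass. Of 13 further genes of sterol sensing and of the degradation of sterol-regulated proteins, 4 rose, 0 fell and 9 did not pass. Those that rose are 30.8% of the list, where 11.6% of all genes tested rose and 9.48% fell. The 4 were *Erlin1* (log2 fold change 1.26, adjusted p = 0.0137, limma), a membrane protein that takes part in degradation at the endoplasmic reticulum, its partner *Erlin2* (0.47, adjusted p = 0.0305), and *Mbtps2* (0.80, adjusted p = 0.0354) and *Mbtps1* (0.43, adjusted p = 0.0369), the proteases that cut SREBP proteins in the Golgi. *Srebf1*, which encodes the relative of SREBP2 that drives fatty acid synthesis, did not pass (log2 fold change 0.41, adjusted p = 0.169, limma). Among 14 tested genes of uptake, trafficking, efflux and bile acid formation that are reported here (1 more lay under the filter), 2 rose and 12 did not pass. These 2 are 14.3% of the 14, near the 11.6% of all genes tested that rose. The lipoprotein receptor gene *Vldlr* rose from 0.881 to 4.58 FPKM on average (log2 fold change 2.55, adjusted p = 0.0170, limma), and *Npc1*, which releases cholesterol from lysosomes, rose from 23.6 to 47.1 FPKM (1.07, adjusted p = 0.0265). Unlike those of the members, single calls of genes outside the 31 were not followed with libraries left out.

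None of 12 genes that use isoprenoids for dolichol, ubiquinone or protein prenylation passed, where 9.48% of all genes tested fell and 11.6% rose. Their log2 fold changes lay between −0.50 (*Fntb*) and 0.20 (*Dolk*). Of 4 genes that supply or handle acetyl-CoA, *Acat1*, the mitochondrial thiolase of ketone metabolism, rose from 35.8 to 65.5 FPKM (log2 fold change 0.89, adjusted p = 0.0165, limma), while *Acly*, ATP citrate lyase, was at 48.5 and 32.4 FPKM and did not pass (−0.56, adjusted p = 0.0572). The median log2 fold change was 0.22 for the sensing genes, −0.02 for the trafficking genes, −0.14 for the isoprenoid genes and −0.15 for the acetyl-CoA genes, beside −1.13 for the 19 enzymes and 0.02 for all genes tested.

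**Figure D5:**
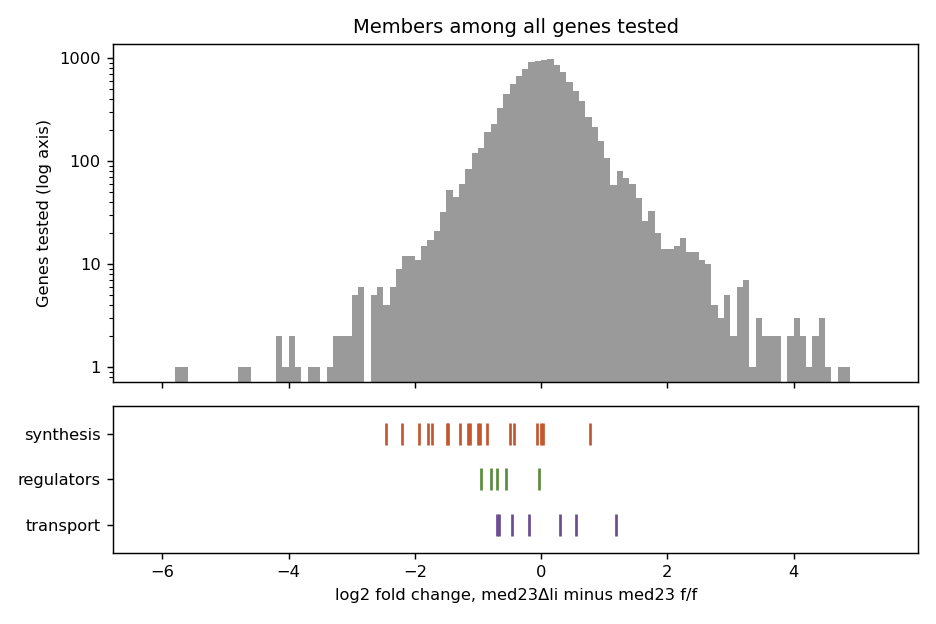
Upper panel, number of genes (log axis) by log2 fold change (*med23*Δli minus *med23* f/f) for the 11956 genes tested, and lower panel, the 31 members as ticks by role on the same horizontal axis. The ticks of the enzymes spread from −2.46 to 0.78, those of the regulators from −0.96 to −0.03 and those of the transport genes from −0.70 to 1.19.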

How the data were processed

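RNA-seq of whole liver from 6 mice was used. The authors checked reads with FastQC, trimmed adapters, aligned the read pairs to mm10 with TopHat and ran Cuffdiff, and the deposited table gives FPKM per library; versions, annotation and Cuffdiff options are not given in the sources used here. Columns of the authors' own comparison in that table (group means, fold change, p and q) were not used. The study's methods give a median read number over samples but none per library, so the depth of each is unknown here: low values showed no step from which whole reads could be recovered (at most a share of 0.022 of low values in 2 libraries shared 1 ratio, within 1%), and the spread between 3 mice is the only error. No 2 libraries held identical values.

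The 11956 of 24346 genes whose mean reached 0.5 FPKM entered a limma fit (version 3.58.1, R 4.3.3) of log2(FPKM + 0.1) by group, moderated with eBayes and a trend in mean level, and p-values were adjusted by Benjamini-Hochberg over these genes; changes on this scale understate those of low genes. A gene is said to have risen or fallen at an adjusted p under 0.05. Paralog ratios were compared by an exact permutation test. The code was tested on simulated data. The members and lists (synthesis, regulators, transport, sterol sensing, trafficking, isoprenoid and acetyl-CoA genes, and markers of 7 cell types) were chosen with earlier results of these data known. All members are named, and other pathway genes where they passed, at most 4 per list by adjusted p; *Srebf1*, *Acly*, *Fntb* and *Dolk* were added after their values were seen, as were the 5 promoters shown. Of the marker lists, *Alb*, *Clec4g* and *Dcn*, the most abundant of theirs, the 2 stellate genes that fell and *Reln*, which was higher, are named. *Tf* and *Ly6g* were not analysed here, and 1 gene of the trafficking list is not reported here and stays out of its counts and median. Gene models and exon overlaps come from GENCODE M21, on the assembly of mm10, and promoters from RefSeq. Python 3.11.15, pandas 2.3.3, numpy 2.4.6 and matplotlib 3.10.9 were used for the rest. The fit was repeated with other pseudocounts (1, 0.01), with a filter at 1 FPKM or none, after median centring or quantile normalization, with robust or trendless eBayes, with a replicate block, and without each library.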

Additional observations from a re-analysis of the deposited data

How the results depend on the processing

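Of the 21 members called, 9 (*Hmgcs1*, *Mvk*, *Mvd*, *Idi1*, *Cyp51*, *Msmo1*, *Hsd17b7*, *Dhcr7* and *Soat2*) were called under all 15 alternatives, and 0 changed sign. Pseudocounts of 1 and 0.01, a filter at 1 FPKM, median centring, quantile normalization and robust eBayes kept all 21. Without a trend *Ggps1* was lost, and without a filter *Ggps1*, *Mylip* and *Stard4*, so that 0 enzymes rose under either. Leaving out a *med23*Δli library lost most: 12 calls without replicate 1, 8 without replicate 2 and 10 without replicate 3, against 4, 4 and 1 without control replicates 1, 2 and 3; the cause was not tested. With each library left out, 8 to 19 members fell and 1 to 3 rose, 7 to 13 fell and 1 to 2 rose more than 2-fold, 8 to 14 enzymes fell and 0 to 1 rose, and 7 to 13 enzymes fell and 0 to 1 rose more than 2-fold. Over all genes tested, 349 to 1429 fell and 401 to 1750 rose (without *med23*Δli replicate 1, 349 and 401; without control replicate 2, 749 fell), and more than 2-fold, 268 to 529 fell and 319 to 730 rose; with a pseudocount of 1, 229 fell more than 2-fold.

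The replicate numbers were not used as pairs. Deviations of same-numbered livers correlated at −0.022, −0.046 and −0.124, and nothing in the labels ties them. With the replicate block, 1 member and 0 enzymes rose, and over all genes 809 rose and 614 fell; 15 members fell.

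Sign changed only in values that did not pass. *Ebp* went to −0.0061 with median centring and −0.12 with quantile normalization, and with libraries left out it ranged from −0.12 to 0.10, *Tm7sf2* from −0.17 to 0.077, *Sc5d* from −0.14 to 0.16, *Insig2* from −0.33 to 0.20, and the difference in the log2 ratio of *Insig1* to *Insig2* from −1.02 to 0.13. Median centring and quantile normalization moved the median log2 fold change of all genes by −0.03 and −0.04. Groups of 3 were not tested for outliers.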
